A study of Mus musculus with 23 samples.

Results

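The first and the last cell type of a series of sorted mouse male germ cells were compared, the spermatogonia, which divide by mitosis, and the round spermatids, which are haploid and are about to be remodelled into sperm. All 4 arrays labelled round spermatids and all 4 wild-type arrays labelled spermatogonia were used, 8 of the 23 arrays of the series. Both groups came from testes of C57BL6xDBA2J F1 males aged 10 to 16 weeks and were sorted by flow cytometry after staining with the DNA dye Hoechst 33342; the labels call the 4 arrays of each group biological replicates. The single array of Spo11-/- spermatogonia entered no test. Spo11 encodes the enzyme that makes the DNA breaks of meiosis, and testes without it hold no round spermatids, so this array shows what a spermatogonia fraction of a testis without spermatids reads. Its mice had the same age range and stain, its cells were pooled from 2 collections, and its strain is not given in the labels. Spo11 itself read 4.30 in that array and 4.60, 6.69, 5.74 and 6.69 in the wild-type spermatogonia arrays, so its level did not set the genotype apart clearly, and whether the probe set lies in the deleted part is not known here.

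Spermatogonia hold the stem cells of the testis and the cells that commit to meiosis. Their transcripts serve DNA replication, cell division, ribosome production and the choice between renewal and differentiation, with the receptor Kit and the transcription factor Dmrt1 among the known regulators. Round spermatids no longer replicate DNA. They build the acrosome, an enzyme-filled vesicle over the nucleus, and the tail, and they store mRNAs for protamines and transition proteins, the small basic proteins that later replace histones. Many of these genes depend on the activator CREM. During meiosis the X chromosome of male germ cells is silenced, and much of it stays repressed in spermatids, while some X-linked genes and many autosomal copies of X-linked genes are active there.

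Levels are log2 of the deposited intensity plus 1, and a change is the mean over the spermatid arrays minus the mean over the spermatogonia arrays, with its standard error. A gene was called higher or lower where limma, fitted over the 20 wild-type arrays of all fractions, gave a Benjamini-Hochberg adjusted p below 0.05 and the change was at least 1 in size. Of 13087 genes tested, 3947 (30.2%) were higher in spermatids, 4614 (35.3%) were lower and 4526 were not called, so 65.4% of all genes were called. The arrays of the groups did not overlap, with spermatids higher, for 4268 genes (32.6%), and with spermatids lower for 4837 (37%). The change was at least 4 for 1016 genes called higher and at least that large for 1023 called lower, and the median change of all genes was -0.16. Median centring of the arrays moved this median to 0.13, so small median shifts of gene lists have no settled sign. A gene with every array of a group below log2 4 was taken as not above background there, and its change is a bound: this held for spermatogonia at 825 genes called higher and for spermatids at 622 called lower. Where only some arrays of a group were below it, the fitted change is given, and its size rests in part on values at background. In such bulk samples, fewer cells of a type and less RNA per cell cannot be told apart.

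Several arrays stood apart within their group. The median of the genes called lower was 6.03 in spermatid array 1 and 5.60, 5.34 and 5.12 in spermatid arrays 2 to 4, highest in array 1, where the Sertoli list and Vim were highest too; the source of these transcripts was not tested. Without that array 3941 genes were higher and 4644 lower. The median of the genes called higher was 6.12, 6.59, 5.79 and 6.17 in spermatogonia arrays 1 to 4, highest in array 2, against 4.49 in the Spo11-/- array. Without spermatogonia arrays 1 and 2 together, 3999 genes were higher and 4773 lower.

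**Figure D1:**
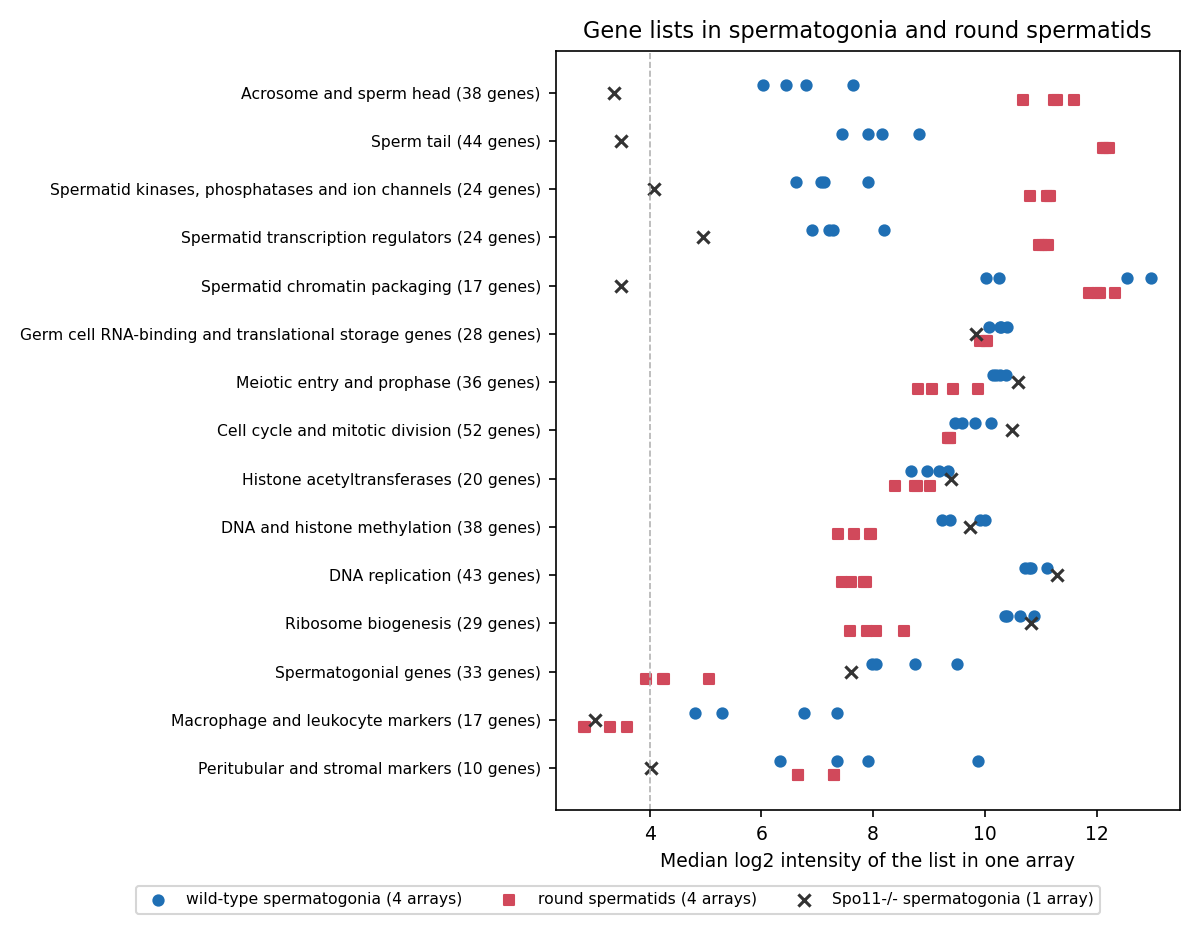
Median log2 intensity of 15 gene lists (x axis) in each wild-type spermatogonia array (circles), each round spermatid array (squares) and the Spo11-/- spermatogonia array (cross); the dashed line marks log2 4, taken as background. Acrosome genes lie between 6.03 and 7.63 in spermatogonia and between 10.68 and 11.59 in spermatids, while chromatin packaging genes lie between 10.03 and 12.98 in spermatogonia, on both sides of the spermatid arrays.

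Genes of the acrosome and sperm head were mostly higher in spermatids. Of 38 tested, 32 (84.2%) were called higher and none lower, against 30.2% and 35.3% of all genes. Their median change was 5.03 against -0.16 over all genes. Acr, the acrosomal protease acrosin, read 5.32, 7.42, 5.24 and 6.78 in the spermatogonia arrays and 12.64, 12.95, 13.11 and 12.62 in the spermatid arrays. The groups were far apart, and the change was 6.64 ± 0.59 (limma, adjusted p = 3.6e-08). Spaca6, a sperm membrane protein needed for fusion with the egg, was at 2.63, 2.99, 2.68 and 2.58 in spermatogonia, not above background, and at 9.08, 10.69, 10.64 and 8.89 in spermatids. It was therefore at least 5.82 higher in spermatids (adjusted p = 6.3e-09). Sun5, which anchors the sperm head to the tail, rose by 6.20 ± 0.73 (adjusted p = 1e-06), and Tmem190, an acrosomal membrane protein, by 6.39 ± 0.57 (adjusted p = 4.3e-08). Izumo1, the sperm ligand of the egg receptor, rose by 5.88, and Spam1, a hyaluronidase, by 6.19. The 6 members not called were Gopc, Csnk2a2, Agfg1, Actrt2, Actrt1 and Actl9. The acrosome list had a median of 6.44, 7.63, 6.03 and 6.80 in the wild-type spermatogonia arrays and 3.36 in the Spo11-/- array. Over all genes tested, the medians were 7.69, 7.66, 7.68 and 7.72 in those wild-type arrays and 7.31 in the Spo11-/- array.

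Tail genes followed the same course, with 35 of 44 (79.5%) called higher and none lower, against 30.2% and 35.3% of all genes. The tail list had a median change of 4.37. Dnaic2, an intermediate chain of the dynein arms that bend the axoneme, read 3.98, 4.62, 4.37 and 4.26 in spermatogonia and 10.30, 10.88, 10.98 and 11.13 in spermatids. Its change was 6.52 ± 0.53 (adjusted p = 1.5e-08), and spermatogonia lay close to background. Cfap65, a protein of the axoneme, rose by 6.38 ± 0.50 (adjusted p = 9.8e-09), and Dnali1, a dynein light chain, by 6.39 ± 0.72 (adjusted p = 5.8e-07). Dnali1 differed strongly among spermatogonia arrays, at 3.31, 6.78, 4.59 and 6.16, with 2.28 in the Spo11-/- array. Spag6l, a protein of the central pair of microtubules, was likewise highest in spermatogonia arrays 2 and 4, at 5.30, 7.75, 4.68 and 7.33 in spermatogonia, 12.15, 12.54, 12.66 and 12.79 in spermatids and 1.99 in the Spo11-/- array. The tektins Tekt1 to Tekt5, filament proteins of the tail microtubules, all rose, by 5.22, 4.93, 5.88, 6.16 and 4.90 in that order. Smcp, a mitochondrial capsule protein, and Odf1, a main protein of the outer dense fibres, were among the 9 not called and are given with the protamines below.

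The signalling list had 17 of 24 (70.8%) higher and none lower, against 30.2% and 35.3% of all genes, with a median change of 2.97. Catsper3, a pore subunit of the sperm calcium channel, was at 5.03, 6.52, 5.02 and 4.88 in spermatogonia and at 11.40, 12.01, 11.85 and 10.05 in spermatids, a change of 5.96 ± 0.55 (adjusted p = 5.3e-08). Catsper1, Catsper2 and Catsperd of the same channel rose by 5.28, 5.08 and 4.57. Kcnu1, the sperm potassium channel, rose by 5.69 ± 0.44 (adjusted p = 8.1e-09). Slc9b1, a sodium/proton exchanger, rose by 6.01 ± 0.66 (adjusted p = 4e-07), but its probe set with the lowest mean above the filter gave -0.77. Of the testis-specific serine kinases, Tssk1, Tssk2 and Tssk4 rose, by 3.79, 1.48 and 5.37, whereas Tssk3 changed by 0.72 and Tssk6 by -0.99 without passing the test. In the Spo11-/- array Tssk3 read 3.35 and Tssk6 read 2.45.

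Among 24 transcription regulators of late germ cells, 19 (79.2%) were higher and 1 (4.17%) lower, against 30.2% and 35.3% of all genes. The median change of this list was 2.96. Crem, the activator of many postmeiotic genes, read 6.54, 8.47, 6.73 and 6.97 in spermatogonia and 11.08, 12.18, 12.66 and 12.07 in spermatids, and rose by 4.82 ± 0.60 (adjusted p = 1.7e-06). Of its 3 probe sets 2 were called higher, and the third gave 0.41 and no call. Crem makes repressor and activator forms from different promoters and exons, and which of them a probe set reads is not known here. Rfx4 (5.58 ± 0.40, adjusted p = 4.3e-09) and Rfx2 (4.17) belong to the family that controls cilia genes. Hsf5 rose by 5.57 ± 0.46 (adjusted p = 1.9e-08), Sox5 by 5.53 ± 0.47 (adjusted p = 2.5e-08), and Gtf2a1l, a germ-cell form of the general factor TFIIA, by 5.82 ± 0.72 (adjusted p = 1.7e-06). Taf7l, an X-linked TFIID subunit, was the 1 member that fell, by 4.15, from a mean of 12.01 to 7.86.

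The 10 largest fitted rises by the naming rule were Prss42, Dnah6, Slco6b1, Dydc1, Iqca, Spaca6, Fam186a, Mgat4d, Ppp1r1c and Lrrc72. In Prss42, a testis serine protease, the spermatogonia arrays read 2.44, 2.66, 2.49 and 2.88 and the spermatid arrays 8.82, 10.50, 10.86 and 10.23, so the gene was at least 6.10 higher (adjusted p = 3.1e-07). Dnah6, a dynein heavy chain, was at 2.63, 3.59, 2.76 and 2.68 in spermatogonia and 10.18, 10.17, 10.35 and 10.29 in spermatids, at least 6.25 higher (adjusted p = 5.1e-09). Ppp1r1c, an inhibitor of protein phosphatase 1, was at least 5.83 higher and Lrrc72 at least 6.25. Spermatogonia were not above background for these genes in any array. Slco6b1, Dydc1, Iqca, Fam186a and Mgat4d were above background in at least 1 spermatogonia array and rose by 7.26, 7.14, 7.14, 7.09 and 7.08. All 10 read below log2 4 in the Spo11-/- array, between 2.15 and 2.90.

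The chromatin packaging genes did not follow the rest of the spermatid genes. Of 17 tested, 5 (29.4%) were higher and 1 (5.88%) was lower, against 30.2% and 35.3% of all genes. The other 11 were not called, and the median change was 0.04. Prm1, one of the protamines, read 15.13, 15.45, 14.68 and 13.86 in wild-type spermatogonia, 14.81, 14.15, 14.15 and 14.54 in spermatids and 3.35 in the Spo11-/- spermatogonia array. The wild-type groups overlapped (change -0.37 ± 0.32, adjusted p = 0.3), and the Spo11-/- array lay at background. Prm2 read 14.84, 15.24, 13.99 and 13.53 in spermatogonia, 14.52, 13.50, 13.87 and 13.80 in spermatids and 3.32 in the Spo11-/- array. Tnp1, a transition protein, changed by 0.10 ± 0.37 (adjusted p = 0.81) and read 2.71 in the Spo11-/- array. Tnp2 was at 14.70, 14.88, 13.26 and 12.39 in spermatogonia and 14.52, 13.46, 13.94 and 14.03 in spermatids, with 2.65 in the Spo11-/- array. Smcp read 14.09, 14.81, 13.00 and 12.35 in spermatogonia against 13.70, 13.12, 13.31 and 12.85 in spermatids, and Odf1 read 13.40, 14.66, 12.60 and 11.79 against 13.13, 13.17, 13.19 and 12.82; both were below log2 3 in the Spo11-/- array. These 6 genes had the largest wild-type minus Spo11-/- differences in spermatogonia among packaging, acrosome and tail genes, and spermatogonia arrays 1 and 2 were above arrays 3 and 4 for all of them. Without arrays 1 and 2, 11 of the 17 packaging genes were called higher, with a median change of 1.31. Arrays 1 and 2 were chosen because they were known to read high for transcripts such as these 6. Leaving them out therefore raises the change of such genes by construction, and the count is a description. Array 1 was not high for every spermatid list, with an acrosome median of 6.44 against 6.80 in array 4.

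Of the packaging genes that were called, Hils1, a spermatid linker histone, rose by 2.42 ± 0.55 (adjusted p = 0.00082) and stood at 11.01, 12.39, 9.90 and 8.95 in spermatogonia and 2.88 in the Spo11-/- array. Brdt, which binds acetylated histones before their removal, rose by 3.27 ± 0.32 (adjusted p = 1.1e-07); its spermatogonia arrays read 8.41, 9.46, 7.90 and 8.18, near the 8.05 of the Spo11-/- array. With the lowest probe set, Brdt changed by 1.14 and was not called. Chd5, a chromatin remodeller of spermatids, rose by 2.09 ± 0.34 (adjusted p = 3e-05). Rnf8, a ubiquitin ligase of histones, fell by 2.86 ± 0.21 (adjusted p = 4.7e-09).

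The Spo11-/- array was used to set genes that are high in spermatids beside their level in wild-type spermatogonia. Of 4970 genes with every spermatid array at log2 8 or more, 816 were below log2 4 in the Spo11-/- array, and only 61 of those were below it in all 4 wild-type spermatogonia arrays. The wild-type spermatogonia level of the 816 genes, from the mean log2 values, had a median of 3.54% of the spermatid level, with quartiles of 1.86% and 11.7%. By array the median was 3.34%, 6.43%, 2.31% and 3.19% for arrays 1 to 4, highest in array 2. Of the 816 genes, 719 were called higher in spermatids, 97 were not called and 0 were called lower. The genes were picked for high spermatid values and a low value in 1 spermatogonia array, so these counts follow in part from that choice. The wild-type level reached at least 50% of the spermatid level for 80 genes and at least the spermatid level itself for 35. Genotype, strain and collection differ between these arrays as well, and their part was not tested. Over all genes called higher, the median was already 8.02 in wild-type mid pachytene and 8.94 in diplotene. Whether the transcripts in wild-type spermatogonia came from spermatids or from earlier cells was not tested.

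**Figure D2:**
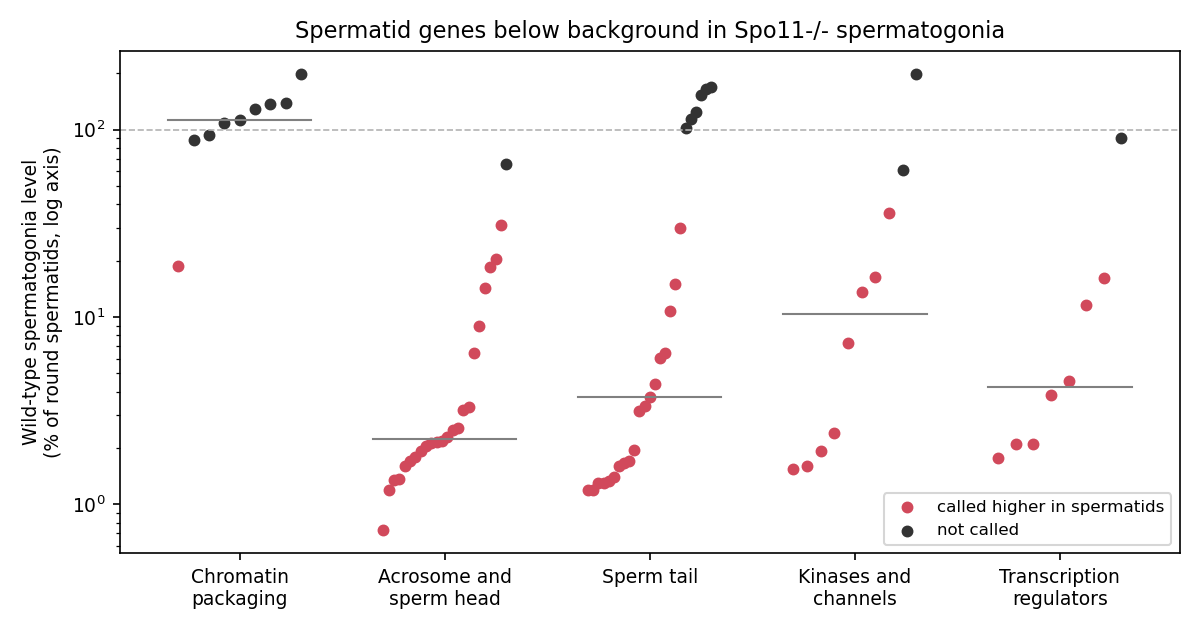
Wild-type spermatogonia level as a percentage of the round spermatid level (log axis) for genes of 5 lists at log2 8 or more in every spermatid array and below log2 4 in Spo11-/- spermatogonia; each point is a gene, grey lines are medians and the dashed line is 100%. The 9 packaging genes have a median of 112% and the 24 acrosome genes a median of 2.23%. Tssk6, a member of the packaging and the signalling list, is drawn in both.

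That percentage differed between the lists. The 9 packaging genes in this set had a median of 112%, with 8 not called, and the 25 tail genes a median of 3.72%, with 6 not called. The 24 acrosome genes had a median of 2.23%, with 1 not called. The 10 signalling genes had a median of 10.4% and the 8 transcription regulators 4.22%. Single genes ran from 0.727% to 199%. The highest was Tssk6, which belongs to both the packaging and the signalling list and is counted in each. Over all genes tested, 163 genes not called stood at least 4 above the Spo11-/- array in the mean of the spermatid arrays, and 0 stood that far below it.

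Spermatogonial genes were lower in spermatids for 26 of 33 tested (78.8%) and higher for 2 (6.06%), against 35.3% and 30.2% of all genes. Their median change was -3.39. Kit, the receptor of differentiating spermatogonia, read 10.60, 10.71, 11.48 and 10.98 in spermatogonia and 5.01, 5.005, 5.03 and 3.38 in spermatids, and fell by 6.33 ± 0.40 (adjusted p = 1.3e-09). Dmrt1, which keeps spermatogonia in mitosis, was at 13.73, 13.69, 14.18 and 13.96 against 9.20, 7.03, 6.99 and 6.17, and fell by 6.55 ± 0.48 (adjusted p = 5e-09). Crabp1, a retinoic acid binding protein, fell by 7.11 ± 0.52, Ccnd1, cyclin D1, by 6.71 ± 0.38, and Uchl1, a ubiquitin hydrolase, by 6.44 ± 0.51. All of these were also high in the Spo11-/- array, between 10.50 and 13.59. Of stem cell genes at lower levels, Ret fell by 2.14 and Etv5 by 2.19, and Gfra1, not above background in spermatids, changed by -2.59 or beyond. Their levels in spermatogonia leave little room above log2 4 for a larger fall. Gfra1, Ret and Etv5 read 3.62, 4.59 and 4.80 in the Spo11-/- array, each below all 4 wild-type spermatogonia arrays, whose means were 6.59, 6.67 and 6.76. Id4 and Dmrtb1 were called higher, by 1.91 and 2.16.

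DNA replication genes were lower for 34 of 43 tested (79.1%) and higher for 2 (4.65%), against 35.3% and 30.2% of all genes. The replication list had a median change of -2.32. Cdt1, which loads the replicative helicase onto origins, read 12.62, 12.57, 12.63 and 12.64 in spermatogonia and 7.72, 4.07, 2.36 and 2.43 in spermatids. The spermatogonia arrays were nearly identical and the spermatid arrays spread widely, with array 1 highest; the fall of 8.47 ± 0.86 (adjusted p = 1.8e-07) was the largest fitted. Helicase subunits fell together: Mcm2 by 8.08 ± 0.51 (adjusted p = 1.3e-09), Mcm3 by 7.52 ± 0.56, Mcm4 by 7.27 ± 0.52, Mcm5 by 5.75 and Mcm6 by 5.01, whereas Mcm7 changed by -0.59 and was not called. In spermatids Mcm2 was above background in 1 of 4 arrays and Mcm3 in 2. Mcmbp, which binds these subunits, read 10.19, 10.84, 11.26 and 11.25 in spermatogonia and was not above background in spermatids, at 3.23, 2.78, 2.76 and 2.64, a change of -6.88 or beyond (adjusted p = 7.8e-11). Pcna, the sliding clamp, fell by only 1.13, and Rpa1, which binds single-stranded DNA, rose by 1.19 while Rpa2 and Rpa3 of the same complex fell by 5.51 and 5.38. Rfc2, a clamp loader subunit, was the other replication gene that rose, by 1.06.

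Of 52 genes of the cell cycle and mitosis, 20 (38.5%) were lower, near the 35.3% of all genes, 8 (15.4%) were higher against 30.2%, and 24 were not called. Their median change was -0.27. Cenpa, the histone of centromeres, went from 12.14, 12.37, 12.49 and 11.83 to 5.25, 4.53, 3.75 and 3.29 and fell by 8.001 ± 0.48 (adjusted p = 7.9e-10). Mycn was not above background in spermatids, with a change of -4.76 or beyond, and E2f2 with -4.05 or beyond; the lowest probe set of Mycn gave 0.06. Genes that act at the meiotic divisions were among the 8 that rose. Ccna1, the cyclin A of male meiosis, read 6.03, 7.67, 5.76 and 7.60 in spermatogonia and 11.93, 12.61, 13.00 and 12.94 in spermatids, a rise of 5.86 ± 0.63 (adjusted p = 3.4e-07), and Aurkc, Aurka and Plk1, kinases of division, rose by 4.77, 3.58 and 2.29. Ccna2, the cyclin A of dividing cells in general, fell by 4.49.

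Of 36 meiotic genes, 18 (50%) were lower and 8 (22.2%) higher, against 35.3% and 30.2% of all genes. Stra8, the trigger of meiotic entry, fell by 6.50 ± 0.73 (adjusted p = 5.5e-07), from 11.46, 10.79, 10.95 and 12.29 to 7.78, 4.28, 4.37 and 3.04. Dmc1, the meiotic recombinase, was not above background in spermatids, with a change of -5.53 or beyond (adjusted p = 2.3e-10), and neither was Prdm9, which marks recombination sites, with -1.46 or beyond (adjusted p = 1.1e-06). Tex11 fell by 6.69 ± 0.53 and Rec114, a partner of Spo11, by 5.33 ± 0.37. Sycp3, of the chromosome axis, was not called, with 12.40, 12.37, 12.85 and 12.46 in spermatogonia and 12.12, 12.31, 12.62 and 12.74 in spermatids (change -0.07 ± 0.19, adjusted p = 0.74). Spo11 rose by 4.79 ± 0.62 (adjusted p = 2.9e-06), to 10.15, 11.20, 10.99 and 10.55, and Hspa2, a chaperone of late meiosis, by 4.07.

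Ribosome biogenesis genes were lower for 22 of 29 (75.9%) and higher for 2 (6.90%), against 35.3% and 30.2% of all genes. Here the median change was -2.33. Dkc1, an X-linked enzyme of rRNA pseudouridylation, read 11.11, 10.81, 11.46 and 11.23 in spermatogonia and 5.76, 3.98, 3.89 and 3.99 in spermatids, a fall of 6.75 ± 0.52 (adjusted p = 9.2e-09). Ncl, nucleolin, fell by 5.77 ± 0.29, Nop56 by 5.53 ± 0.38 and Wdr43 by 4.98 ± 0.41. The lowest probe set of Ncl gave 0.45. Wdr12 and Polr1a rose, by 2.10 and 1.42.

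Of 28 RNA-binding genes, 11 (39.3%) were higher and 9 (32.1%) lower, near the 30.2% and 35.3% of all genes. Dazl, a translational activator of germ cells, read 13.88, 14.24, 14.32 and 14.27 in spermatogonia and 9.53, 8.36, 7.15 and 7.19 in spermatids, a fall of 6.12 ± 0.40 (adjusted p = 1.9e-09), while Boll of the same family rose by 2.47. Cpeb1, which controls poly(A) tails, was not above background in spermatids, with a change of -5.74 or beyond (adjusted p = 6.6e-11). Ybx2 and Ybx3, which hold spermatid mRNAs in store, rose by 2.77 and 3.65, Piwil1 by 4.00 and Adad1 by 4.64 ± 0.35 (adjusted p = 7.4e-09), whereas Piwil2 fell by 1.44. In the ubiquitin list, 9 of 24 (37.5%) were higher and 6 (25%) lower, against 30.2% and 35.3% of all genes. Ube2u rose by 6.24 ± 0.63, and Kctd6 and Ubr2 fell by 5.77 ± 0.41 and 5.47 ± 0.45, the last above background in 2 of 4 spermatid arrays and not called with its lowest probe set (-0.02).

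Histone acetyltransferases were more often lower, 11 of 20 (55%), than higher, 5 of 20 (25%), against 35.3% and 30.2% of all genes. Hat1, which acetylates newly made histone H4, read 12.46, 12.30, 13.14 and 13.26 in spermatogonia and 9.55, 9.83, 10.14 and 9.85 in spermatids, a fall of 2.95 ± 0.23 (adjusted p = 1.2e-08). Ep300 fell by 2.06 ± 0.22 (adjusted p = 2.8e-07) and its relative Crebbp by 2.71 ± 0.24 (adjusted p = 3.9e-08), although the lowest probe set of Crebbp gave -0.60 and no call. Taf1, of TFIID and X-linked, fell by 6.34 ± 0.46, and Clock by 4.53 ± 0.35, the latter not called with its lowest probe set (-0.77). Kat2b rose by 2.40 ± 0.30 (adjusted p = 1.8e-06), from 6.80, 6.60, 6.92 and 8.24 to 9.55, 9.64, 9.53 and 9.43, and Kat5, Kat8, Cdyl and Kat7 rose by 2.07, 2.04, 1.91 and 1.28. Among 16 deacetylases, 4 were higher and 5 lower, 25% and 31.2% against 30.2% and 35.3% of all genes. Hdac6, X-linked, fell by 6.93 ± 0.74, Sirt7 by 4.89 ± 0.55 and Hdac2 by 3.95 ± 0.28, while Sirt4 rose by 3.95 ± 0.40. Hdac2 was not called with its lowest probe set (-0.34).

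Bromodomain readers gave 7 of 26 (26.9%) higher and 5 (19.2%) lower, against 30.2% and 35.3% of all genes, and 5 higher and 9 lower without spermatogonia arrays 1 and 2. Smarca2, an ATPase of the BAF complex, rose by 3.42 ± 0.41 (adjusted p = 1.1e-06), whereas its paralogue Smarca4 changed by -0.42 and was not called. Baz1b fell by 4.10 ± 0.26, Phip by 3.88 ± 0.41 and Atad2b by 3.70 ± 0.22; with the lowest probe sets, Baz1b (-1.48) and Phip (-0.03) were not called. Of 38 genes of DNA and histone methylation, 23 (60.5%) were lower and 5 (13.2%) higher, against 35.3% and 30.2% of all genes. Their median change was -1.48. Dnmt3b, a DNA methyltransferase, read 11.30, 10.63, 10.99 and 12.02 in spermatogonia and 6.52, 4.11, 4.52 and 3.45 in spermatids, a fall of 6.58 ± 0.49 (adjusted p = 6.9e-09), and Dnmt1 and Dnmt3a fell by 4.71 and 4.97. Ehmt1, of H3K9 methylation, fell by 6.39 ± 0.45 and Kmt2a, of H3K4 methylation, by 5.14 ± 0.42. Kdm4d, an H3K9 demethylase, rose by 5.79 ± 0.44 (adjusted p = 7.3e-09), from 5.58, 6.73, 5.27 and 6.50 to 11.64, 11.89, 11.70 and 11.99, while Dnmt3l, not above background in spermatogonia, was at least 3.46 higher.

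**Figure D3:**
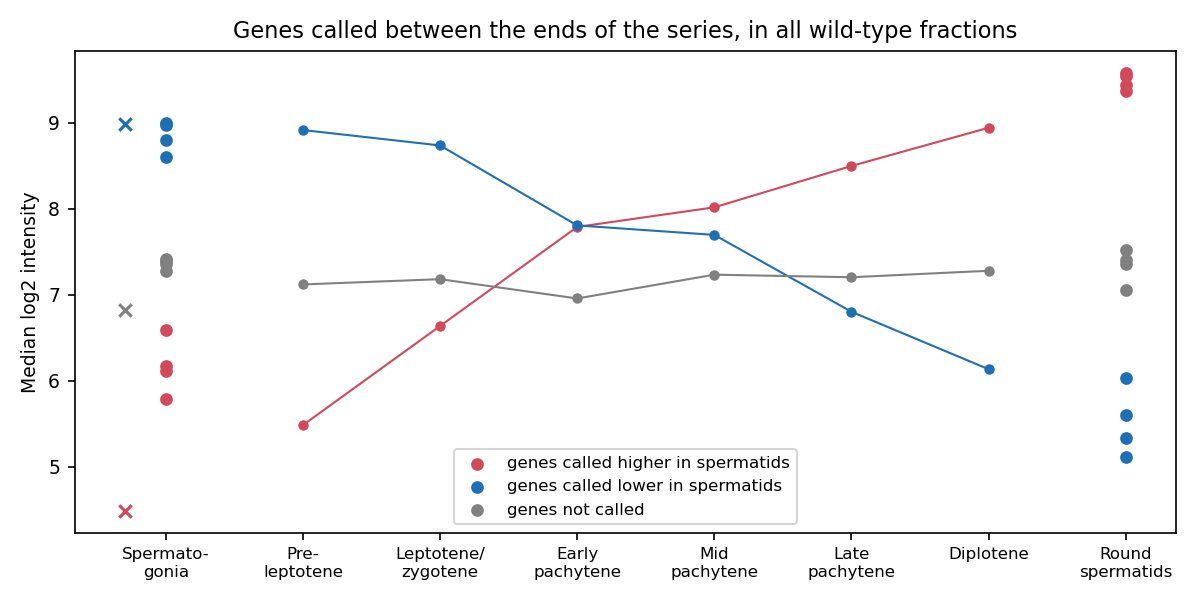
Median log2 intensity (y axis) of the genes called higher, called lower and not called, in each spermatogonia and spermatid array (points at the ends), in the Spo11-/- spermatogonia array (crosses) and as fraction means in between (joined points). The genes called higher go from 5.49 in pre-leptotene to 8.94 in diplotene, and those called lower from 8.92 to 6.14.

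In the fractions between them, the genes called higher had a median of 5.49 in pre-leptotene, below every wild-type spermatogonia array, then 6.64 in leptotene/zygotene, 7.79, 8.02 and 8.50 in early, mid and late pachytene and 8.94 in diplotene. The genes called lower had 8.92 and 8.74 in pre-leptotene and leptotene/zygotene, within the range of the spermatogonia arrays, 7.81, 7.70 and 6.80 through pachytene and 6.14 in diplotene. Early and late pachytene had 1 array each, and the fit shared its estimate of the spread with these fractions.

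The X chromosome differed from the autosomes. In each array the median level of the 12586 autosomal genes was subtracted from that of the 419 X-linked genes, which gave -0.13, -0.47, -0.27 and -0.63 in the spermatogonia arrays and -1.90, -2.86, -2.70 and -2.66 in the spermatid arrays. No array of the groups overlapped, spermatid array 1 being nearest to spermatogonia. The means were -0.37 ± 0.22 and -2.53 ± 0.43 (SD, n = 4 each), and the difference of -2.16 had a two-sided exact permutation p of 0.0286, the smallest that 4 against 4 arrays allow. Taken as pairs by replicate number, the differences were -1.77, -2.39, -2.43 and -2.03, all of 1 sign, and the exact sign-flip p was 0.125, the smallest that 4 pairs allow. Without the filter on low values the difference was -1.13. The Spo11-/- array read 0.02. Of the X-linked genes, 259 (61.8%) were lower, with a median change of -3.58, and 57 (13.6%) were higher, whereas single autosomes had between 31.0% and 38.1% lower and between 27.3% and 34.4% higher. Of the 57 X-linked genes called higher, 29 (50.9%) were not above background in any spermatogonia array, against 19.9% of the 3838 autosomal genes called higher.

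**Figure D4:**
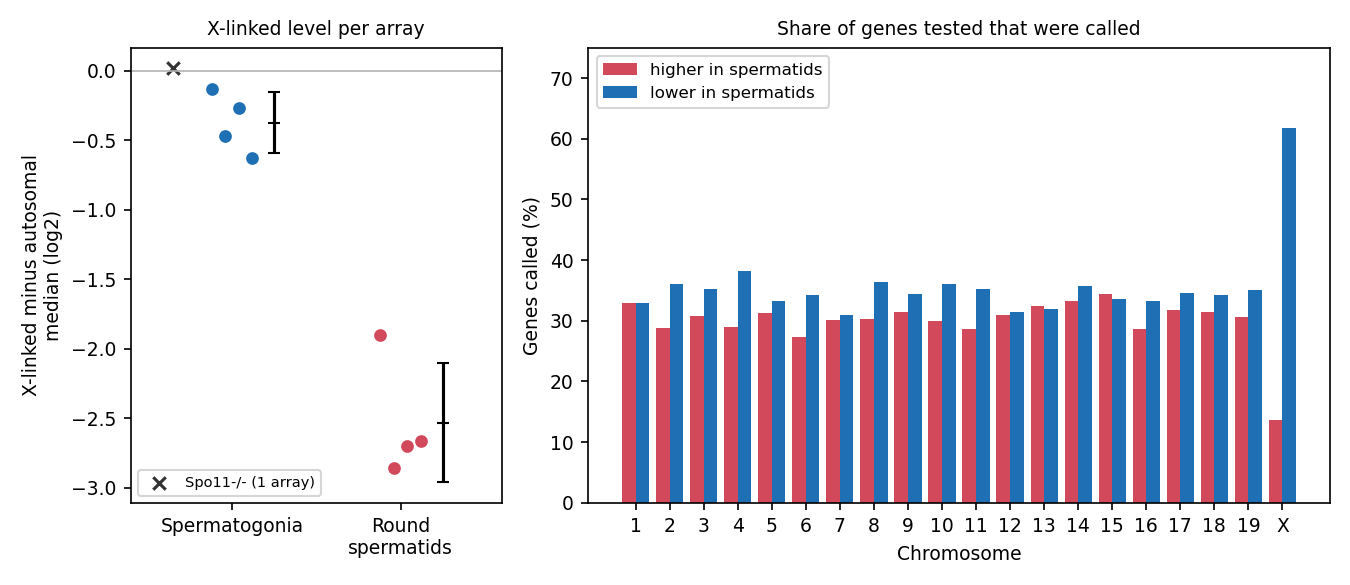
Left, median log2 of X-linked minus autosomal genes in each array (points), with mean and SD over 4 arrays (bars) and the Spo11-/- array (cross). Right, percentage of the genes tested on each chromosome that were called higher or lower in spermatids; chromosome X has 61.8% lower and 13.6% higher.

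Hccs, an X-linked gene for the enzyme that attaches haem to cytochrome c, read 10.94, 11.26, 11.57 and 11.28 in spermatogonia and 3.87, 3.03, 3.10 and 2.56 in spermatids, where it was not above background. Its change was -7.27 or beyond (adjusted p = 4.2e-10), and its means in mid pachytene and diplotene were 8.62 and 4.42. Mbnl3, an RNA-binding protein, and Bex1 fell by 7.88 ± 0.73 and 7.62 ± 0.84; in both, spermatid array 1 stood out, at 6.13 against at most 3.08 for Mbnl3 and at 7.71 against at most 3.21 for Bex1. Mbnl3 changed by -0.76 and was not called with its lowest probe set. Rps6ka6, a kinase, and Dock11 fell by 7.07 ± 0.35 and 6.98 ± 0.58. Mbnl3, Bex1, Rps6ka6 and Dock11 were each above background in 1 of 4 spermatid arrays, array 1. Among X-linked genes that rose, Samt2b, of a germ-cell family, was at 2.76, 3.04, 2.58 and 3.14 in spermatogonia and 8.80, 9.65, 9.90 and 8.29 in spermatids, at least 5.16 higher (adjusted p = 5.3e-10). Samt4 and Cldn34d were at least 4.24 and 4.23 higher, and Cldn34b2 rose by 5.87 ± 0.71. Samt and Cldn34 genes have near copies, and a probe set may read more than 1 of them.

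Of 7 Y-linked genes tested, 5 (71.4%) were lower and 2 (28.6%) higher, against 35.3% and 30.2% of all genes. Uba1y, a ubiquitin-activating enzyme of spermatogonia, read 13.42, 13.17, 13.43 and 13.51 against 10.09, 9.43, 9.34 and 8.89 and fell by 3.95 ± 0.29 (adjusted p = 5.6e-09). Kdm5d and Eif2s3y fell by 2.55 ± 0.34 and 1.64 ± 0.33, and Uty, not above background in spermatids, changed by -1.86 or beyond; Uty was 0.33 with its lowest probe set, and Eif2s3y was not called with the mean of its probe sets (-0.78). Zfy2 rose by 1.45 ± 0.35 (adjusted p = 0.0014). Orly was called higher on spermatid arrays 3 and 4, at 8.49 and 10.27 against 4.22 and 5.04 in arrays 1 and 2 (adjusted p = 0.036), and the call was lost when spermatid array 4 (adjusted p = 0.15), spermatid array 3 or spermatogonia array 1 or 3 was left out.

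**Figure D5:**
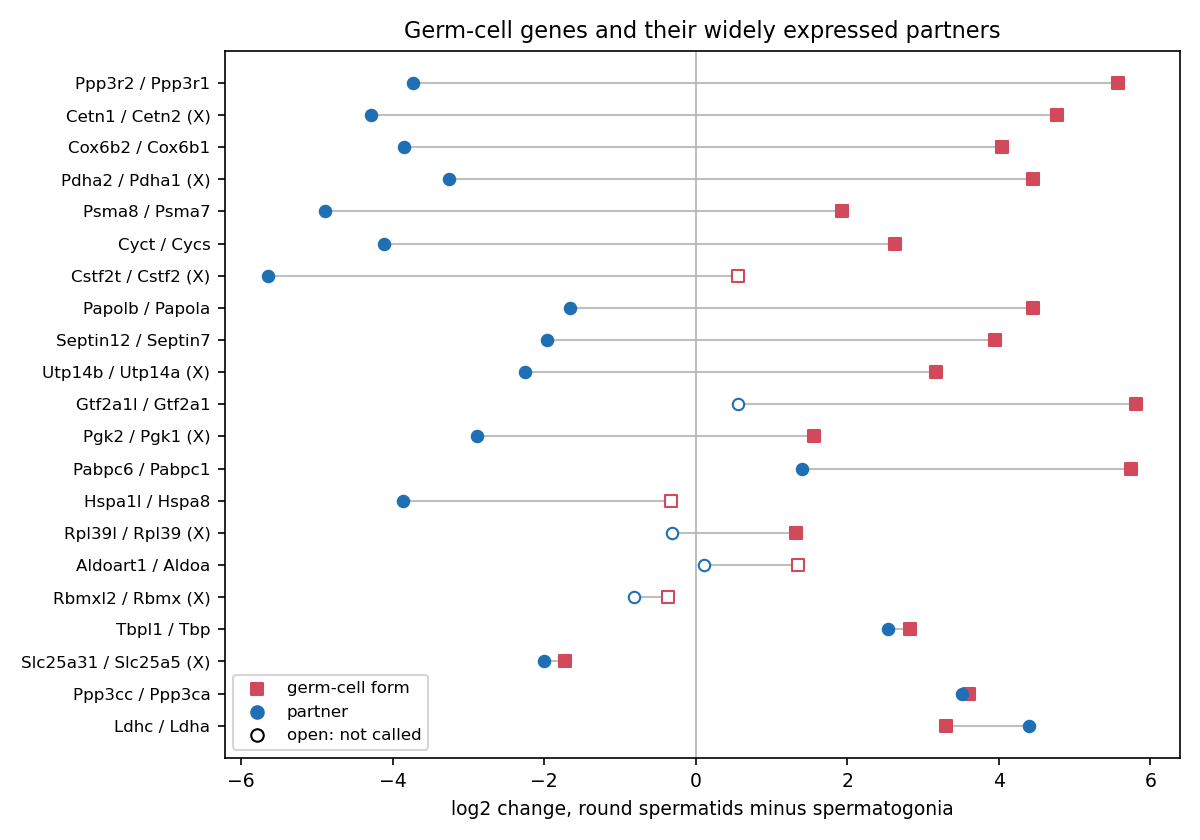
Change in log2 intensity (x axis, spermatids minus spermatogonia) of 21 germ-cell genes (squares) and their widely expressed partners (circles), ordered by the difference; open symbols were not called and (X) marks an X-linked partner. In 10 pairs the germ-cell gene was higher and the partner lower, beside 30.2% higher and 35.3% lower over all genes.

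Germ cells use testis-specific copies of many housekeeping genes, often autosomal where the partner is X-linked. Of 21 pairs with both members measured, the germ-cell gene was higher and the partner lower in 10, and both were higher in 4. Over all genes, 30.2% were higher and 35.3% lower, and pairs drawn from all genes were not counted. In Ppp3r2 and Ppp3r1, regulatory subunits of calcineurin, the first rose by 5.58 ± 0.77 and the second fell by 3.74 ± 0.35, although the lowest probe set of Ppp3r1 gave 0.20. The centrins Cetn1 and Cetn2 changed by 4.78 ± 0.49 and -4.28 ± 0.38. The cytochrome c genes Cyct and Cycs changed by 2.63 ± 0.22 and -4.12 ± 0.60, the cytochrome oxidase subunits Cox6b2 and Cox6b1 by 4.04 ± 0.32 and -3.86 ± 0.42, and Pdha2, a pyruvate dehydrogenase subunit, by 4.45 ± 0.55, while its partner Pdha1, not above background in spermatids, changed by -2.78 or beyond. Psma8, the germ-cell proteasome subunit, rose by 1.93 ± 0.31 while Psma7 fell by 4.90 ± 0.34. Papolb and Papola, poly(A) polymerases, changed by 4.45 ± 0.47 and -1.65 ± 0.25, Septin12 and Septin7 by 3.95 ± 0.56 and -1.97 ± 0.25, and Utp14b and Utp14a by 3.17 ± 0.25 and -2.25 ± 0.26. With the mean of their probe sets, Papola (-0.40) and Utp14a (-0.996) were not called.

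Pgk2 and Pgk1, glycolytic kinases of which the second is X-linked, changed by 1.57 ± 0.54 and -2.88 ± 0.27. Pgk2 read 12.64, 13.63, 11.18 and 10.61 in spermatogonia and 2.90 in the Spo11-/- array, so it belonged with the transcripts that were high in wild-type spermatogonia, and its call was lost without spermatogonia array 3 or 4. Of 8 X-linked partners, 6 were lower, beside 61.8% of all X-linked genes. Pairs that did not follow this course were the lactate dehydrogenases Ldhc and Ldha, which both rose, by 3.30 ± 0.38 and 4.39 ± 0.47, the calcineurin subunits Ppp3cc and Ppp3ca, which both rose, by 3.61 ± 0.31 and 3.51 ± 0.37, and the adenine nucleotide carriers Slc25a31 and Slc25a5, which both fell, by 1.72 ± 0.24 and 2.00 ± 0.43, the second not called with its lowest probe set (-0.30). The lowest probe set of Ppp3cc gave -0.56. Tbpl1 and Tbp both rose, by 2.82 ± 0.41 and 2.53 ± 0.37, and Tbpl1 was not called with its lowest probe set (0.32). Pabpc6 rose by 5.74 ± 0.83; Pabpc1 rose by 1.41 ± 0.23 with 1 probe set and fell by 2.16 with another, so its direction is not settled. Rpl39l and Gtf2a1l rose, by 1.33 and 5.82, with partners that were not called. Cstf2t and Hspa1l were not called while their partners Cstf2 and Hspa8 fell, by 5.64 and 3.86, the last not called with its lowest probe set (-0.99), and in the pairs of Aldoart1 and Rbmxl2 neither member was called. Like Pgk2, Hspa1l, Aldoart1 and Ldhc were high in wild-type spermatogonia, with means of 11.04, 9.62 and 12.13. In the Spo11-/- array they read 2.43, 3.79 and 2.95, so their changes are taken against that high level. Cstf2t (10.69 against 10.21) and Rbmxl2 (8.52 against 7.71) differed less.

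The promoters of genes from both classes are shown because members of the acrosome and tail lists rose together and members of the replication list fell together. The 250 bases before the start, from RefSeq on GRCm38.p6, were searched on both strands for TGACGTCA, the cAMP response element bound by CREM, and for TTTCCCGC and TTTGGCGC, forms of the E2F element of S-phase genes. The promoters printed were chosen after their matches were seen. Capitals mark each match, and a match on the opposite strand appears as its reverse complement. Dnah6, Izumo1 and Spag6l rose, and Cycs, which fell, carries the same 8 bases (chr6:73221632-73221881 on the minus strand, chr7:45621561-45621810 on the plus strand, chr16:16829364-16829613 on the minus strand and chr6:50566570-50566819 on the minus strand).
Dnah6: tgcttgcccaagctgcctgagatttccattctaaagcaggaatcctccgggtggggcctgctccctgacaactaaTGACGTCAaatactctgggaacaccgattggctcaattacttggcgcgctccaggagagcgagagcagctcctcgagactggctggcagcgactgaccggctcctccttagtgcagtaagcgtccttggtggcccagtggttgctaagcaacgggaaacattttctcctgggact
Izumo1: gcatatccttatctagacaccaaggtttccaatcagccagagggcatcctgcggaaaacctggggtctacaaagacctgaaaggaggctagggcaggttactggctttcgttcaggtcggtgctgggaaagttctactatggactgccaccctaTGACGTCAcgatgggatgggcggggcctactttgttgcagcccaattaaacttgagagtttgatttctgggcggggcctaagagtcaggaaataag
Spag6l: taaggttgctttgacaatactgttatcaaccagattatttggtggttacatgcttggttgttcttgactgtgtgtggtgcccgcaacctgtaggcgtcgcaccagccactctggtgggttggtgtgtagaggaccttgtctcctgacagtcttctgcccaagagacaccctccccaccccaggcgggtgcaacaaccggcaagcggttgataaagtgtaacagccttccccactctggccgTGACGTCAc
Cycs: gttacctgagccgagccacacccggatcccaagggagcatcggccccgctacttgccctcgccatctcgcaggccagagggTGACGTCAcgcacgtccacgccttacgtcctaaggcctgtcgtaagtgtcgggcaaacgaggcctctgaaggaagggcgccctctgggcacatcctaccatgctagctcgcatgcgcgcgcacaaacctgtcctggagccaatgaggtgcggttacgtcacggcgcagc

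Mcm5, Mcm6 and Mcmbp fell and carry an E2F form, Mcm6 at 2 places (chr8:75109259-75109508 on the plus strand, chr1:128359706-128359955 on the minus strand and chr7:128740430-128740679 on the minus strand). Mcm5 also holds TGACGTCA, and Mcm7, which was not called, has TTTCCCGC in its window too. Sirt4, which rose by 3.95, carries TTTCCCGC as well.
Mcm5: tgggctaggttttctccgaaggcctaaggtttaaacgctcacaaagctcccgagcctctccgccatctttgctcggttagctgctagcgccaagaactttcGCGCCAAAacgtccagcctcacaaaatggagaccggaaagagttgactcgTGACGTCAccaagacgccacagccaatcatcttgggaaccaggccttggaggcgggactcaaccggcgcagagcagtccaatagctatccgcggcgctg
Mcm6: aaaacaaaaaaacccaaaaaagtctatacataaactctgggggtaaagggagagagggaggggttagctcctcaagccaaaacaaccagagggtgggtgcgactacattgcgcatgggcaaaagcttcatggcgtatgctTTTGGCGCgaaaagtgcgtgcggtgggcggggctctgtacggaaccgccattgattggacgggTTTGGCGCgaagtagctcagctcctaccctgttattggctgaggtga
Mcmbp: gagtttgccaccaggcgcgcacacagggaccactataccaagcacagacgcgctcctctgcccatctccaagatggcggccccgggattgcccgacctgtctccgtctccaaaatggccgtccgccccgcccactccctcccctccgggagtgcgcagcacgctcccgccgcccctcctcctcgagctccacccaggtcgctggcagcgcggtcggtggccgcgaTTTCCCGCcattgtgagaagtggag

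Over all genes with a promoter in the table, TGACGTCA stood before 87 of 3194 genes called higher (2.72%), 109 of 3814 called lower (2.86%) and 314 of 10639 tested (2.95%), so these shares lay close together. Its first 5 bases, TGACG, were found before 25.7%, 32.1% and 29.5% of these, and include the matches of the whole element. The whole element stood before 2 of 30 acrosome genes (6.67%) and 1 of 34 tail genes (2.94%), so most members of both lists lack it. Either E2F form stood before 61 genes called higher (1.91%), 143 called lower (3.75%) and 300 tested (2.82%). In the replication list it was before 6 of 35 genes. GTTGCCATG, a form of the X-box bound by RFX factors, stood before 45 genes called higher (1.41%), 18 called lower (0.472%) and 89 tested (0.837%). CCAAT was before 40.9%, 40.2% and 40.4%, and TATAAA before 9.61%, 7.05% and 8.20%. The median number of CG pairs in the window was 13 for genes called higher, 18 for genes called lower, 4 for the X-linked genes called higher, 16 for all tested genes and 6 for the whole table. These are counts of letters with no test, and in all 27025 genes of the table TGACGTCA was before 1.77%, either E2F form before 1.51% and the X-box form before 0.733%.

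Among markers of other cells of the testis, those of macrophages and leukocytes moved most with the comparison. Of 17 macrophage and leukocyte markers, 13 (76.5%) were lower in spermatids, against 35.3% of all genes, and none higher, with a median change of -2.95. Their medians were 7.35, 5.29, 4.80 and 6.77 in the spermatogonia arrays, 3.60, 2.82, 2.85 and 3.28 in the spermatid arrays and 3.02 in the Spo11-/- array. Lyz1, a lysozyme, read 10.39, 10.24, 10.36 and 11.38 in spermatogonia and 5.997, 3.75, 4.73 and 4.32 in spermatids and fell by 5.89 ± 0.64 (adjusted p = 3.6e-07). Lyz2, the lysozyme of macrophages, Ptprc, the common leukocyte antigen, and Tyrobp were not above background in spermatids, with changes of -5.01, -3.97 and -2.96 or beyond. Of 10 peritubular and stromal markers, 4 (40%) were lower, near the 35.3% of all genes. Vim fell by 2.29 ± 0.71, Pdgfra by 1.91 ± 0.69 and Acta2 by 1.59 ± 0.52, and Col1a1, not above background in spermatids, changed by -0.55 or beyond. With spermatogonia array 4 left out 2 stromal markers were lower, and with array 3 left out 7. Spermatogonia array 4 had the highest stromal median, 9.88 against 7.36, 7.91 and 6.34; without it Col1a1 and Pdgfra were not called (adjusted p = 0.14 and 0.051), and the lowest probe set of Pdgfra gave 0.18. Col1a1 was also not called without any 1 of the spermatid arrays, and Pdgfra not with quantile normalization. Acta2 was not called without spermatogonia arrays 1 and 2 (adjusted p = 0.083).

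No Sertoli marker of 8 and no endothelial marker of 5 was called, against 65.4% of all genes. The Sertoli list had medians of 8.20, 6.64, 5.72 and 4.65 in the spermatid arrays, highest in array 1. Aard and Wt1 read 10.26 and 6.14 in that array, above the other spermatid arrays, and both were called lower when it was left out. Vwf and Cdh5, of the endothelium, changed by 0.69 ± 0.69 and -0.72 ± 0.58. Hsd3b1, of Leydig cells, rose by 1.57 ± 0.54 (adjusted p = 0.015), a call lost without spermatid array 2 or 4, and Hba-a2, of red blood cells, changed by 0.88 ± 0.55 (adjusted p = 0.16) and was called higher without spermatid array 1. In the Spo11-/- array, whose leukocyte median lay at background although Ptprc read 6.93, the spermatogonial list had a median of 7.61 and the replication list of 11.30. The part of these other cells in the genes called lower was not tested.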

How the data were processed

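RNA of sorted cells was measured on Affymetrix mouse arrays. The deposited values are intensity on a linear scale, which the authors computed for each probe set with GCRMA, per the submitters' processing notes; no version is given in the sources used here. They were analysed as log2(value + 1). Of 45037 probe sets, 34945 had 1 gene symbol in the platform table, 932 had several and 9160 none; probe sets without exactly 1 symbol were not used. Gene names and positions were taken from RefSeq on GRCm38.p6, joined by Entrez identifier for 34741. Each of 18193 genes was represented by the probe set of highest mean on the 20 wild-type arrays, and 13087 had log2 of at least 4 in at least 2 arrays. A mean per fraction was fitted over these arrays with limma 3.58.1 in R 4.3.3, with eBayes and Benjamini-Hochberg adjustment, and tested on simulated data. The labels name no shared animal for a replicate number; after subtracting group means, arrays with the same number had correlations of 0.396, 0.121, 0.102 and 0.158, so a replicate block was tried. No depth exists for arrays; array medians of the intensity lay between 10.63 and 12.56, and precision is limited by how many arrays there are. p-values measure the spread between arrays.

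The 22 gene lists held 600 entries, 563 on the array and 539 tested. Named genes were the 10 largest fitted rises and falls without overlap, leaving out predicted names, up to 4 called members of each list by size (up to 2 values where none), all measured pairs, up to 6 X-linked and 4 Y-linked genes in each direction, 18 genes always given (Prm1, Prm2, Tnp1, Tnp2, Acr, Crem, Kit, Stra8, Dmrt1, Spo11, Prdm9, Dmc1, Sycp3, Brdt, Hat1, Ep300, Crebbp and Kat2b) and 6 genes of the Spo11-/- check; further members are given by their role and were chosen after their values were seen. Members and lists were chosen with earlier results of these data known. The largest falls were Cdt1, Hccs, Mcm2, Mcmbp, Cenpa, Mbnl3, Bex1, Pbx2, Mcm3 and Isoc1.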

Additional observations from a re-analysis of the deposited data

Results flagged for a closer look

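In 366 groups of 4 arrays, the gap between the highest or lowest array and the next was compared with the range of the group; 25 exceeded Dixon's limit at 95%, and chance flags about 1 in 20 groups. Of these, 11 concerned spermatid array 1, which was the highest in 10. It stood above the others for Bex1 (7.71), Cpeb1 (3.64), Dkc1 (5.76), Hspa8 (11.88), Isoc1 (5.02), Mbnl3 (6.13), Mcm4 (6.81), Pbx2 (5.44), Rps6ka6 (4.43) and Vim (9.16), genes that were all lower in spermatids, and below them for the median of the RNA-binding list (9.92).

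Spermatid array 4 was lowest for Chd5 (7.72), Kit (3.38), Odf1 (12.82), Samt4 (6.68) and the median of the signalling list (10.80), and highest for Utp14b (9.85). Spermatogonia array 2 was highest for the spermatid genes Catsper3 (6.52), Dnah6 (3.59), Sox5 (6.84) and 4933428M09Rik (3.76), and lowest for Rec114 (9.65). Spermatogonia array 4 was highest for Hsd3b1 (4.02), Lyz1 (11.38) and Slc25a5 (10.21). Cpeb1, Dnah6 and 4933428M09Rik lay below log2 4 in the group concerned.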

How the results depend on the processing

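Over 22 alternatives the number of genes called stayed between 7485 (mean of probe sets) and 8772, except with a fold minimum of log2 2, which by construction kept fewer: 5693 genes, 2638 higher and 3055 lower. Leaving out 1 array gave 8436 to 8710 genes, 3858 to 4020 higher and 4503 to 4731 lower. A replicate block gave 8655 genes over the 20 arrays and 8508 over the 8 arrays alone, and 8560 and 8469 of the 8561 calls were kept. After quantile normalization 4223 genes were higher and 4255 lower; after centring on the median, 4424 and 4179. The X-linked difference ran from -2.82 with a stricter filter to -1.13 without a filter; leaving out 1 array it ran from -2.37 to -2.05, and without spermatogonia arrays 1 and 2 it was -2.08 with an exact permutation p of 0.0667, the smallest that 2 against 4 arrays allow. With the replicate block, chosen after seeing the data, the X-linked difference of -2.16 had an exact sign-flip p of 0.125, the smallest that 4 pairs allow.

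The lowest probe set of a gene gave 110 calls of opposite direction; the cause was not tested. Among 160 named genes, 118 kept their call throughout. Reversals were Mycn (0.063), Ncl (0.45), Pdgfra (0.18), Ppp3cc (-0.56), Ppp3r1 (0.20), Slc9b1 (-0.77) and Uty (0.33) with the lowest probe set, and Pabpc1 with that (-2.16) and with the mean (-0.37). Of 5564 genes with several probe sets tested, 192 had probe sets called both ways. Only 4 arrays a group, and log2 4 as background, limit what can be told of genes at low signal.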
